A study of Mus musculus with 6 samples.

Results

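The EGFR family of receptors and ligands was read in T1 and T2 cells as 10 genes picked by symbol from the 24129 gene names of the deposited table. They are 4 receptors (Egfr, Erbb2, Erbb3 and Erbb4) and 6 ligands (Areg, Ereg, Hbegf, Tgfa, Btc and Epgn). The series holds 3 replicates of each population, labelled 4T1A for T1 and 4T1NA for T2. Both derive from 4T1, a mouse mammary carcinoma line used as a model of triple negative breast cancer, which had been tagged with GFP (4T1GFP) and injected into BALB/c mice. After resection of a primary tumor, GFP+ cells that had overgrown a culture of its fibroblast fraction were sorted again by GFP. T1 cells, with low GFP, were adherent, whereas the T2 cells, with high GFP, were round and loosely attached. Both were cultured in the same medium with serum, but T2 cells were subcultured without trypsin, so handling and population cannot be told apart in any value below. The replicates are independent according to the series' design, and no source used here states whether they came from separate sorts.

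Receptors of this family sit in the cell membrane, pair with each other when a ligand binds, and signal through Ras and ERK and through PI3K and Akt. Egfr binds all 6 member ligands, Erbb2 (HER2) has no known ligand and acts as a partner, Erbb3 has a weak kinase and binds neuregulins, and Erbb4 binds neuregulins as well as some of the member ligands. The ligands are made as membrane proteins and are shed by ADAM proteases, and in the mammary gland Areg is the member best known for driving duct growth. The family was therefore read together with 5 further ligands (Egf and Nrg1 to Nrg4) and with 8 lists of genes that shed the ligands, restrain or sort the receptors, or carry their signal.

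Values are normalized counts, that is, reads per gene divided by a size factor for each library. The libraries held 18133227 to 20839686 reads on genes. Cells of other types were rare by their markers. Of 8 fibroblast genes 4 had no read in any library (Col3a1, Lum, Pdgfrb and Thy1), and the list summed to 21.2 to 40.0 normalized counts in T1 and at most 1.86 in T2 libraries. The 8 leukocyte genes summed to 3.17 to 15.8 and 9.21 to 14.8, with Tyrobp and Cd3e at 0, and the 5 endothelial genes to at most 5.29 and 4.64, with Kdr and Emcn at 0. The 12 epithelial genes summed to 101700 to 121400 in T1 and 37630 to 44000 in T2 libraries, with Krt5 at 0. Most of the T2 sum was Krt8 and Krt18, with T2 means of 19195 and 21658 normalized counts. Krt14, Krt19, Cldn4 and Esrp1 had means of 3795, 3177, 5530 and 686 in T1 and 3.04, 2.91, 5.29 and 0.31 in T2 cells. Of the 9 epithelial genes compared, 7 were higher in T1 cells, among them Epcam, with 3141 ± 314 normalized counts in T1 and 34.7 ± 3.49 in T2 cells (SD, n = 3 each). Most of the epithelial genes compared, but not Krt8 and Krt18, thus differed between the populations. The part of epithelial transcripts in the differences below was not tested. In bulk RNA, fewer cells with a transcript and less of it per cell cannot be told apart. For the label triple negative, the progesterone receptor gene Pgr had no read in any library, while the estrogen receptor gene Esr1 had 47.6 to 73.2 normalized counts in T1 and 27.4 to 49.2 in T2 libraries. Erbb2, the third of the receptors that define the label, is described below.

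Promoter sequence is shown for 4 ligand genes whose levels differed between the populations, Areg, Tgfa and Btc (higher in T2) and Epgn (higher in T1), because 3 of them lie in the ligand cluster of chromosome 5. Each is the 250 bases before the RefSeq start on the gene's own strand in build GRCm38.p6, written 5′ to 3′. They span chr5:91139349-91139598 (Areg, plus strand), chr6:86194972-86195221 (Tgfa, plus strand), chr5:91402995-91403244 (Btc, minus strand) and chr5:91027267-91027516 (Epgn, plus strand). Capitals mark matches, on either strand, to 6 motifs whose letters are spelled out after the sequences.
Areg: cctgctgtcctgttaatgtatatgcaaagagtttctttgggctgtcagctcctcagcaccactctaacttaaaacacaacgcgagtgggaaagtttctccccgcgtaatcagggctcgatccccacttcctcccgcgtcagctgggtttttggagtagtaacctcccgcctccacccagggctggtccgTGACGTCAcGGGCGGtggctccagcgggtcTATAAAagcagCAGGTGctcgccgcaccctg
Tgfa: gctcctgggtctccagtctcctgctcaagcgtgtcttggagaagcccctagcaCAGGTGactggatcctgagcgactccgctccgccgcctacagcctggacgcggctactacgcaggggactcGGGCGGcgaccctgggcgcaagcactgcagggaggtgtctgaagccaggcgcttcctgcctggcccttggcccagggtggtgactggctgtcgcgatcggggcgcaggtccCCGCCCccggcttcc
Btc: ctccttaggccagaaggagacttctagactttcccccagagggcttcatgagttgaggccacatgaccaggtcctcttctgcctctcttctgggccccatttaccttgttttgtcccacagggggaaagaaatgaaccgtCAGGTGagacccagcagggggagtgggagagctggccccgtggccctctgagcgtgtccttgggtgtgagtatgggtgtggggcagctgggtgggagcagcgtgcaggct
Epgn: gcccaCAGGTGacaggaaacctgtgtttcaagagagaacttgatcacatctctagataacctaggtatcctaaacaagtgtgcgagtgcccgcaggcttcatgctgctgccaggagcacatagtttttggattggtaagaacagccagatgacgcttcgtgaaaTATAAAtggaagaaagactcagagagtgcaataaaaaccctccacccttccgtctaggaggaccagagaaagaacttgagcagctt

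Of the 10 members, 7 had a promoter entry, and each motif was searched on both strands. The E-box bound by the Snail and Zeb repressors, spelled CACCTG, was present in 4 of the 7 windows, those of Areg, Tgfa, Btc and Epgn, and in 17.2% of all 32817 promoter windows of the same length. Among these 4 genes, the E-box stood beside levels that were higher in T2 (3 genes) and higher in T1 (Epgn). The core of the cAMP response element, spelled TGACGT, was found in the Areg window alone among the 7, against 6.46% of all windows. There it was matched on each strand, overlapping in 1 palindrome that begins 61 bases before the start. The GC box, spelled GGGCGG, was found for Egfr, Areg and Tgfa (32.7% of all windows), at 52 bases before the start in Areg and at 126 and 15 bases in Tgfa. The TATA box, spelled TATAAA, was found for Areg at 31 bases and for Epgn at 86 bases before the start (12.4% of all windows). The Epgn window ends at 91027516, past the GENCODE start of the gene at 91027464. Its last bases thus lie inside that annotated gene, and its motif distances depend on the start used. The ETS site, spelled CCGGAA, was found for the receptors Egfr and Erbb4 and for none of the member ligands searched (12.0% of all windows). No member window held the AP-1 letters TGANTCA, which 6.75% of all windows did. The matches are descriptions of letters and not of binding.

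The comparison of T1 with T2 cells asked how far the receptor and ligand transcripts differ between the aggressive and the less aggressive population. The receptors Egfr and Erbb3 were higher in T1 cells, and 4 ligands (Areg, Hbegf, Tgfa and Btc) were higher in T2 cells, while Epgn was the only member ligand higher in T1. Differences were tested with limma on log2(normalized count + 1) over the 11514 genes whose normalized counts averaged 10 or more, and log2 fold changes below are T1 minus T2 on that scale. Of the 10 members, 8 reached that mean, 3 receptors and 5 ligands. Epgn reached it through T1 cells only. Erbb4 and Ereg did not reach it. At an adjusted p-value under 0.01 (Benjamini-Hochberg), 3 members were higher and 4 lower in T1 cells, where 25.1% and 24.4% of all genes compared were (49.5% in both directions). With a further filter, an absolute log2 fold change over 2, which applies in both directions the size that the study used for genes higher in T1, 2 members were higher (Erbb3 and Epgn) and 3 lower (Areg, Tgfa and Btc) in T1 cells, against 4.17% and 4.2% of all genes compared (8.37% in both directions). The median log2 fold change was -0.39 over the 8 members compared and -0.01 over all genes compared. In 7 of the 8, all T1 values lay on one side of all T2 values, as they did in 68.1% of all genes compared (34.2% with T1 above and 33.9% with T2 above). T1 was above in 3 of the 7 and T2 in 4. An exact permutation test of 3 against 3 samples cannot go below p = 0.1, which these 7 members reached.

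**Figure D1:**
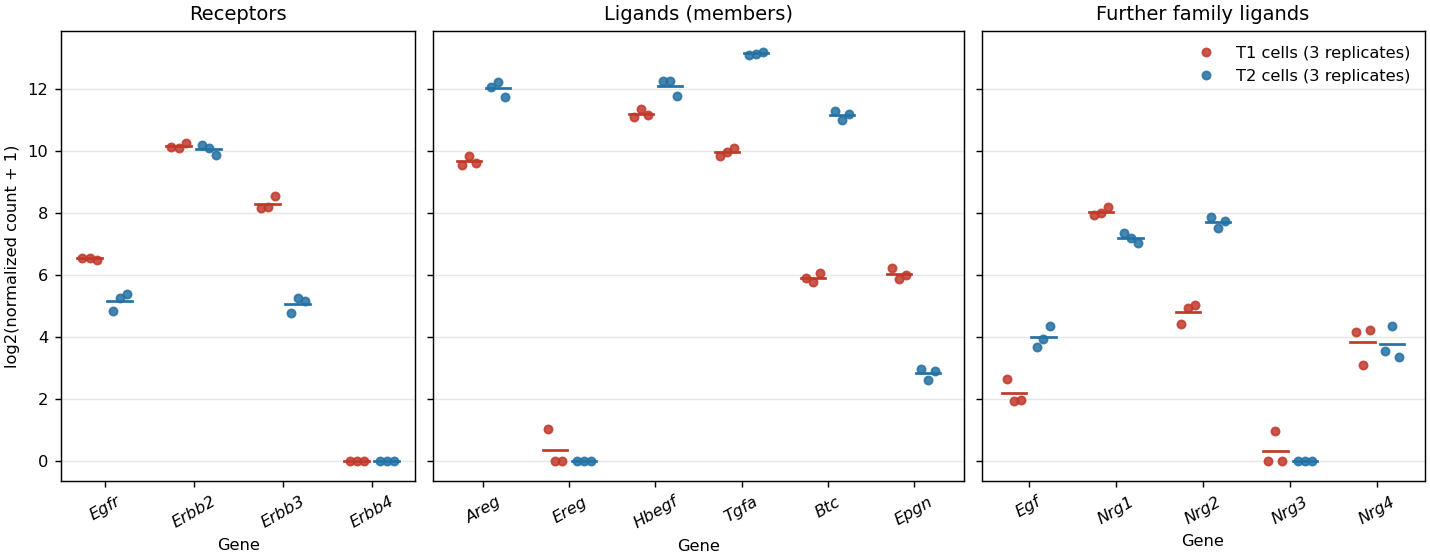
Each point is the log2(normalized count + 1) of a gene in 1 library, T1 in red and T2 in blue, with the mean of 3 replicates as a line. Egfr, Erbb3, Epgn and Nrg1 lie higher in T1 cells, Areg, Hbegf, Tgfa, Btc, Egf and Nrg2 higher in T2 cells, and Erbb4, Ereg and Nrg3 at or near 0.

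Among the receptors, Egfr (chromosome 11 of mm10, 16752203 to 16918158, plus strand) is the receptor shared by all member ligands. Its 3 T1 libraries had 92.1, 93.0 and 88.8 normalized counts and its T2 libraries 27.4, 36.9 and 40.8. The T1 values were close to each other and all above the T2 values, of which replicate 1 was the lowest. Egfr was 2.61-fold higher in T1 cells, and its log2 fold change was 1.38 (standard error 0.22, adjusted p = 0.000324, limma), past the p-value threshold but not the fold filter. Its 28 to 100 reads per library limit the precision of this ratio.

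Erbb3 (chromosome 10, 128567523 to 128589652, minus strand), the neuregulin receptor that relies on a partner for most of its kinase activity, differed most among the receptors. The T1 libraries had 286, 289 and 367 normalized counts and the T2 libraries 26.4, 36.9 and 34.3. All T1 values stood far above the T2 values, with T1 replicate 3 the highest. The mean was 9.65-fold higher in T1 cells (log2 fold change 3.23, standard error 0.20, adjusted p = 3.71e-07, limma). Counted from the highest log2 fold change, Erbb3 ranked 274 among the 11514 genes compared.

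Erbb2 (chromosome 11, 98412470 to 98437716, plus strand), which encodes HER2, was past no threshold. It had 1107, 1096 and 1200 normalized counts in T1 libraries and 1160, 1079 and 923 in T2 libraries, so the groups overlapped. The log2 fold change was 0.11 with a 95% interval from -0.12 to 0.34 (adjusted p = 0.367, limma), which leaves room for a small difference in either direction. Exons of Erbb2 overlap those of Mien1 on the other strand, and no strand setting of the counting is given in the sources used here. Erbb4 (chromosome 1, 68032186 to 69108059, minus strand) had no read in any of the 6 libraries, where a count of 0 allows up to 3 reads, or 2.78 to 3.17 normalized counts, in a library.

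**Figure D2:**
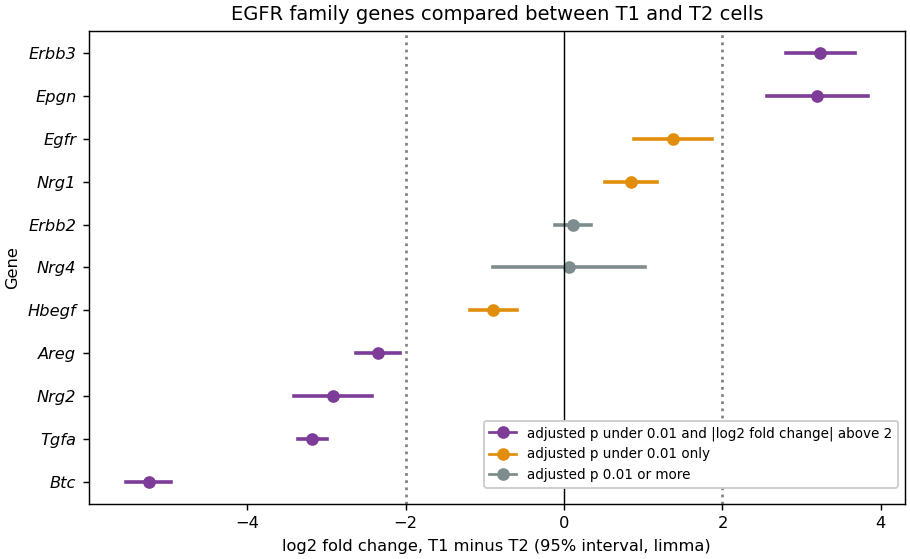
Points are log2 fold changes (T1 minus T2) of the 11 family genes with enough reads, with their 95% intervals from limma. Purple marks genes past both filters, orange those past the adjusted p-value alone and grey those past neither, and the dotted lines are the fold filter of 2, beyond which lie Erbb3 and Epgn on the T1 side and Areg, Nrg2, Tgfa and Btc on the T2 side.

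Among the ligands, Btc (betacellulin, which activates both Egfr and Erbb4) differed most. It lies on chromosome 5 from 91357261 to 91402994 on the minus strand. Its T1 libraries had 58.2, 53.9 and 65.4 normalized counts, and its T2 libraries 2473, 2045 and 2339. Every T2 library was far above every T1 library, and the spread within each population was small beside that gap. Btc was 38.6-fold higher in T2 cells (log2 fold change -5.25, standard error 0.13, adjusted p = 1.22e-09, limma) and was number 68 of the 11514 genes compared when counted from the lowest log2 fold change.

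Tgfa (transforming growth factor alpha, which binds Egfr; chromosome 6, 86195223 to 86275719, plus strand) was higher in T2 cells. The T1 libraries had 909, 981 and 1081 and the T2 libraries 8721, 8899 and 9332 normalized counts. The T2 replicates were within a narrow range, and the mean was 9.07-fold higher there (log2 fold change -3.18, standard error 0.08, adjusted p = 1.89e-09, limma). Exons of Tgfa overlap an annotated gene on the other strand, Gm43917.

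Areg (amphiregulin; chromosome 5, 91139599 to 91148432, plus strand) was higher in T2 cells. Its values were 749, 897 and 778 in T1 and 4243, 4781 and 3416 normalized counts in T2 libraries. The groups did not overlap, although T2 replicate 3 was lower than the other two. Areg was 5.13-fold higher in T2 cells (log2 fold change -2.35, standard error 0.12, adjusted p = 1.43e-07, limma).

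Hbegf (heparin-binding EGF-like growth factor; chromosome 18, 36504927 to 36515805, minus strand) had the smallest fold of the 5 member ligands compared. The T1 libraries had 2187, 2607 and 2257 and the T2 libraries 4858, 4901 and 3460 normalized counts. The lowest T2 value, again of replicate 3, was still above the highest T1 value. It was 1.87-fold higher in T2 cells (log2 fold change -0.89, standard error 0.13, adjusted p = 0.000196, limma), which does not pass the fold filter.

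Epgn (epigen, an Egfr ligand of low affinity; chromosome 5, 91027464 to 91035215, plus strand) went the other way. It had 74.1, 57.7 and 62.5 normalized counts in T1 libraries and 6.85, 5.12 and 6.50 in T2 libraries, which held 7, 5 and 7 reads. All T1 values were far above the T2 values, which were close to the limit of 3 reads. The ratio of means was 10.5 (log2 fold change 3.20, standard error 0.28, adjusted p = 5.33e-06, limma). Among the settings tried, the log2 fold change of Epgn ran from 2.64 with a pseudocount of 5 to 3.39 with DESeq2. Epgn reached the mean of 10 normalized counts needed for the test through T1 cells only. Ereg (epiregulin; chromosome 5, 91074622 to 91093646, plus strand) had 1 read in T1 replicate 1 and none in the other libraries, so no fold is given.

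The 4 ligand genes of chromosome 5 lie in a row with no other protein-coding gene between them and did not move together. In the order Epgn, Ereg, Areg and Btc they cover 375.5 kb, with 39.4 kb between Epgn and Ereg, 46.0 kb between Ereg and Areg and 208.8 kb between Areg and Btc. Epgn, at one end, was higher in T1 cells. Ereg had next to no reads, and Areg and Btc were higher in T2 cells. The flanking protein-coding genes were looked at after these values were seen. Mthfd2l, 6.1 kb from Epgn, had 478 to 537 normalized counts in T1 and 434 to 470 in T2 libraries (log2 fold change 0.19, adjusted p = 0.144, limma), and Parm1, 114.6 kb from Btc, had at most 1 read in any library.

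**Figure D3:**
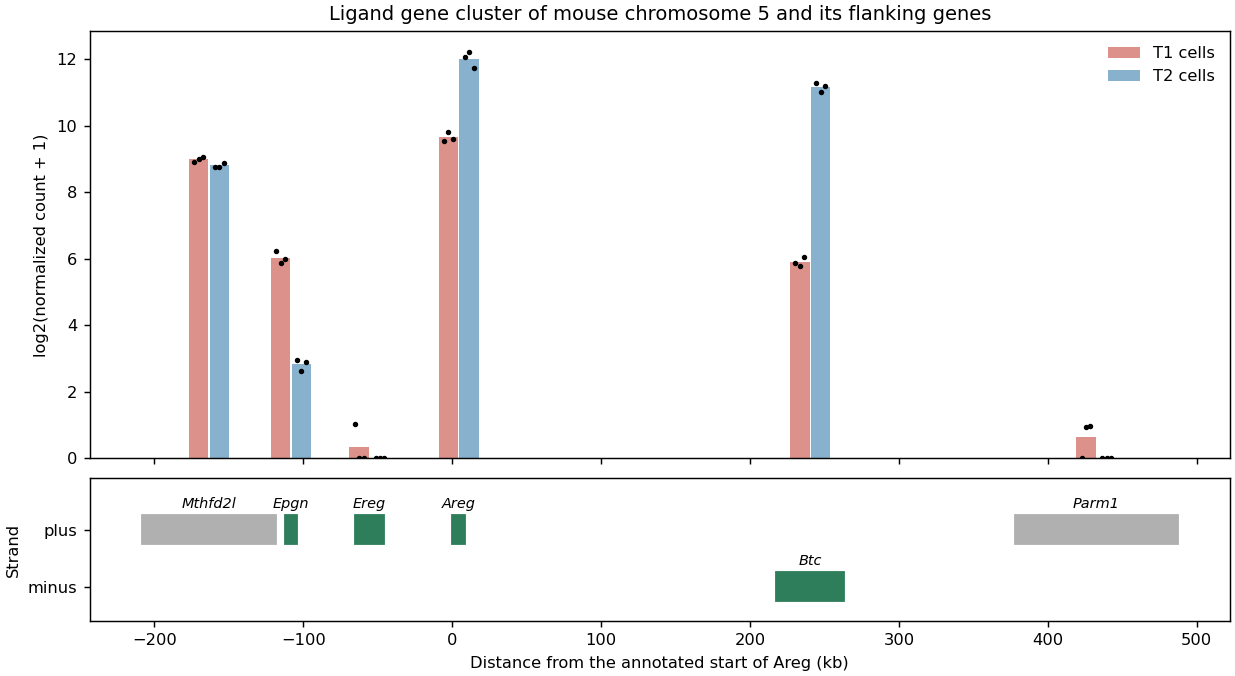
The lower panel maps the 4 ligand genes (green) and the protein-coding genes on either side (grey) by strand and by distance from the start of Areg, in kb. Bars above each gene give the mean log2(normalized count + 1) in T1 (red) and T2 (blue) cells, with the 3 replicates as points, and show Epgn higher in T1, Areg and Btc higher in T2, and Ereg and Parm1 near 0.

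Levels of different genes were set side by side only per kb of exonic length, the union of a gene's annotated exons. Among the receptors the order was Erbb2, Erbb3, Egfr and Erbb4 in both populations, and no neighbors in that order overlapped in their replicates. In T2 cells the order of Erbb3 and Egfr came from the division by length. Erbb3 had 27, 36 and 37 reads there and Egfr 28, 36 and 44. In T1 cells Erbb2 had 217.8 ± 11, Erbb3 52.2 ± 7.64 and Egfr 8.06 ± 0.194 normalized counts per kb (SD, n = 3 each). In T2 cells they had 202.4 ± 23.1, 5.41 ± 0.904 and 3.09 ± 0.608 (SD, n = 3 each). Erbb2 made up 77% to 79.3% of the summed receptor level per kb in T1 libraries and 95% to 97% in T2 libraries. Erbb3 held 17.7% to 20.4% in T1 and 1.92% to 3.06% in T2 libraries. The sum over the 4 receptors was 278.0 ± 18.4 normalized counts per kb in T1 and 210.9 ± 22.1 in T2 cells (SD, n = 3 each).

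The order of the member ligands per kb in T1 cells was Areg, Hbegf, Tgfa, Epgn, Btc and Ereg, and in T2 cells Areg, Tgfa, Hbegf, Btc, Epgn and Ereg. In T1 cells Areg had 665.1 ± 64.7, Hbegf 486.2 ± 46.5, Tgfa 152.6 ± 13.3, Epgn 35.8 ± 4.67 and Btc 13.1 ± 1.28 normalized counts per kb (SD, n = 3 each). In T2 cells Areg had 3413 ± 566, Tgfa 1384 ± 48.4, Hbegf 911.5 ± 169.6, Btc 505.7 ± 48.5 and Epgn 3.41 ± 0.507 (SD, n = 3 each). Neighbors in either order did not overlap in their replicates. The order of Areg and Hbegf in T1 cells depends on the length used, since the length of the longest transcript puts Hbegf at 813.2 normalized counts per kb above Areg. The sum over the 6 ligands was 1353 ± 108 in T1 and 6218 ± 662 normalized counts per kb in T2 cells (SD, n = 3 each), which is 4.60 times as much. Areg made up 48.4% to 50.1% of that sum in T1 and 51.2% to 58.1% in T2 libraries. The share of Hbegf was 35.3% to 36.6% in T1 and 13% to 15.7% in T2 libraries, while Tgfa had 10.3% to 12.6% and 20.2% to 26.2% and Btc 0.81% to 1.09% and 6.68% to 9.43%. These shares also depend on the length used. By the longest transcript, Areg made up 37.4% to 38.8% in T1 and 42.25% to 48.54% in T2 libraries. Hbegf then made up 45.62% to 47.39% and 17.99% to 21.78%, and the sum was 4.285 times as much in T2 cells.

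**Figure D4:**
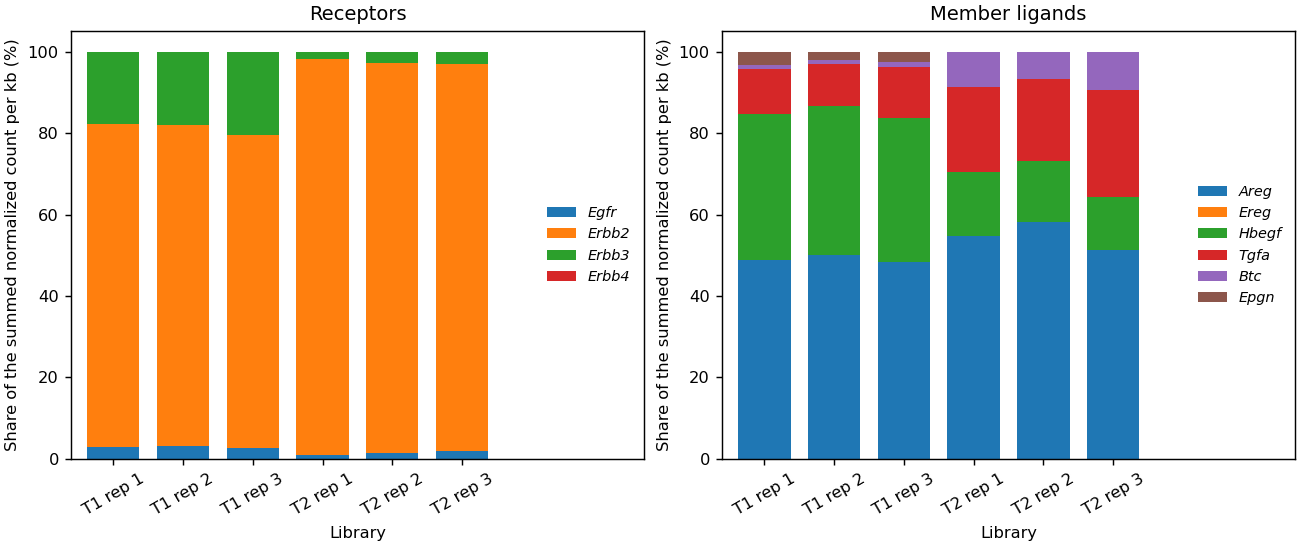
Stacked bars give, for each of the 6 libraries, the share in percent of each receptor (left) or member ligand (right) in the summed normalized count per kb of exonic length. Erbb3 takes 17.7% to 20.4% of the receptor level in T1 libraries and at most 3.06% in T2 libraries, and Tgfa and Btc take larger shares of the ligand level in T2 libraries.

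The 5 further ligands of the family did not share a direction. Nrg1, which binds Erbb3 and Erbb4 (chromosome 8, 31814551 to 32884029, minus strand), had 242, 254 and 287 normalized counts in T1 and 161, 144 and 130 in T2 libraries. It was 1.80-fold higher in T1 cells (log2 fold change 0.85, standard error 0.15, adjusted p = 0.000579, limma). Nrg2, also an Erbb3 and Erbb4 ligand (chromosome 18, 36017652 to 36197380, minus strand), had 20.1, 29.8 and 31.2 in T1 and 232, 182 and 212 normalized counts in T2 libraries. It was 7.72-fold higher in T2 cells (log2 fold change -2.92, standard error 0.22, adjusted p = 1.83e-06, limma), past both filters. Nrg4 had 7.44 to 17.6 normalized counts in T1 and 9.28 to 19.5 in T2 libraries, and its 95% interval ran from -0.90 to 1.02. Egf, the ligand that names the family, missed the filter on low values with a mean of 9.43 normalized counts. It had 5, 3 and 3 reads in T1 libraries against 12, 14 and 21 in T2 libraries, so that the groups did not overlap. Nrg3 had 1 read in T1 replicate 2 and none elsewhere. Exons of Nrg1, Nrg4, Egf and the member Ereg overlap those of annotated genes on the other strand, as for Erbb2 and Tgfa.

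The genes whose pattern over the 6 samples was most like that of Egfr, by the root mean square difference of centered log2 values, were Cpne8 (0.077), Pcdh1 (0.091) and Galnt3 (0.12). For Tgfa, taken as the member ligand with the highest mean normalized count before any division by length, they were Nr2f1 (0.094), Dab2 (0.12) and Jak2 (0.13). The search covered 11511 genes, and its 6 samples fall into 2 groups.

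The 8 lists of other genes of the pathway held 100 genes, of which 97 had enough reads to be compared. At the p-value threshold (limma), 20 of them were higher in T1 and 43 higher in T2 cells, 64.9% in all, against 49.5% of all genes compared. The lists were chosen with earlier results of these data known, so these counts describe them.

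Genes that shed the ligands moved in both directions. Of 9 compared, 3 were higher and 3 lower in T1 cells, which is 66.7% against 49.5% of all genes compared, and the median of the log2 fold changes was 0.10. Adam17, the main protease that releases Areg, Tgfa and Hbegf, had 1460, 1617 and 1691 normalized counts in T1 and 1451, 1658 and 1710 in T2 libraries, which overlapped throughout (log2 fold change -0.01, adjusted p = 0.907, limma). Adam10, the main protease for Btc and Egf, had 2388 ± 141 in T1 and 4343 ± 308 normalized counts in T2 cells (SD, n = 3 each; log2 fold change -0.86). Adam15 and Frmd8, which stabilizes the complex of Adam17 with iRhom proteins, were also lower in T1 cells (log2 fold changes -0.56 and -0.52). Adam12, another protease reported to cleave Hbegf, had 1345, 1613 and 1818 in T1 and 134, 171 and 110 normalized counts in T2 libraries, and was the one gene of the list past both filters (log2 fold change 3.53, adjusted p = 7.45e-08, limma). Rhbdl2 and Adam9 were higher in T1 cells with log2 fold changes of 0.92 and 0.68.

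Of 11 genes listed as inhibitors of the receptors, 3 were higher and 5 lower in T1 cells. That is 72.7% against 49.5% of all genes compared, and the median of the log2 fold changes was -0.15. The list was drawn up by name, and whether each gene inhibits the receptors in these cells was not tested. Errfi1 (Mig6), which binds the receptor kinase and blocks it, had 2566, 2475 and 2372 normalized counts in T1 and 4463, 6423 and 5490 in T2 libraries (log2 fold change -1.13, adjusted p = 1.66e-05, limma). Socs5, which promotes loss of Egfr, and the membrane protein Lrig2 were lower in T1 cells too, with log2 fold changes of -1.71 and -0.98. Cblc, the epithelial member of the Cbl ubiquitin ligases that mark active receptors for degradation, was higher in T1 cells at 287 ± 27.8 against 49.9 ± 6.93 normalized counts (SD, n = 3 each; log2 fold change 2.50). Its relatives Cbl and Cblb had log2 fold changes of -0.15 and 0.16, with adjusted p-values of 0.374 and 0.306 (limma). The phosphatase Ptprj and Socs4 were higher in T1 cells (log2 fold changes 0.84 and 0.63).

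Among genes of receptor endocytosis and sorting, a pair of adaptors had the largest fold changes, in opposite directions. Of 16 compared, 2 were higher and 6 lower in T1 cells (median log2 fold change -0.16), so that 8 passed the test and 8 did not, close to the share of all genes. Sh3kbp1 (CIN85), an adaptor that links Cbl to the endocytic machinery, had 396, 298 and 357 normalized counts in T1 and 5265, 4584 and 5498 in T2 libraries (log2 fold change -3.87, adjusted p = 3.40e-09, limma). Epn3, an epsin of epithelial cells, had 240, 325 and 336 in T1 and 13.7, 8.19 and 17.6 normalized counts in T2 libraries (log2 fold change 4.45, adjusted p = 4.90e-07, limma). Epn2, Stam and Cd2ap, also called, had log2 fold changes of -0.80, -0.71 and 0.34.

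Of 15 adaptors and exchange factors compared, 3 were higher and 4 lower in T1 cells, or 46.7%, near the share of all genes, and the median of the log2 fold changes was -0.15. Grb7, an adaptor that binds Erbb2 and whose gene lies close to it on chromosome 11, had 580, 492 and 590 normalized counts in T1 and 84.2, 74.7 and 96.5 in T2 libraries (log2 fold change 2.69, adjusted p = 2.08e-07, limma), whereas Erbb2 itself was past no threshold. Gab1, a docking protein, and the phosphatase Ptpn11 were higher in T1 cells (log2 fold changes 1.43 and 0.31). Vav3, a guanine nucleotide exchange factor, had 356 ± 68.3 in T1 and 1657 ± 71.6 normalized counts in T2 cells (SD, n = 3 each; log2 fold change -2.23). The adaptors Nck2 and Shc1 were lower in T1 cells by the same test, with log2 fold changes of -1.48 and -0.94. Grb2, which joins the receptors to Ras, had a log2 fold change of -0.05 (adjusted p = 0.545, limma).

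In the cascade from Ras to ERK, 2 of 11 were higher in T1 and 4 higher in T2 cells (median log2 fold change -0.12), a share of 54.5% that is near the 49.5% of all genes compared, and 0 passed both filters. The scaffold Ksr1 had the largest fold change of the list (-1.81 on the log2 scale), while Mapk3 and Map2k1 had -0.73 and -0.42, and Hras and Map2k2 0.57 and 0.49. In the cascade from PI3K to Akt, 2 of 12 were higher and 5 lower in T1 cells (median log2 fold change -0.22), or 58.3% against 49.5% of all genes compared, and 1 passed both filters. The regulatory subunit Pik3r3 had 198 ± 27.2 in T1 and 36.3 ± 5.70 normalized counts in T2 cells (SD, n = 3 each; log2 fold change 2.42), and the catalytic subunit Pik3cb was higher in T1 cells as well (log2 fold change 1.52). The subunits Pik3r2 and Pik3cd were lower there, with log2 fold changes of -0.77 and -0.56.

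Genes that ERK signaling is known to induce were mostly higher in T2 cells. All 16 had enough reads. At the p-value threshold 12 were higher in T2 and 3 higher in T1 cells, 93.8% in all against 49.5% of all genes compared, and the median of the log2 fold changes was -1.62. Dusp6, an ERK phosphatase, had 807, 1047 and 1035 normalized counts in T1 and 5887, 3733 and 5785 in T2 libraries (log2 fold change -2.39, adjusted p = 1.12e-06, limma). Fosl1, a subunit of AP-1, had 441, 456 and 292 in T1 and 2316, 2524 and 1744 normalized counts in T2 libraries (log2 fold change -2.48, adjusted p = 1.51e-06, limma). Fos, which responds to stimulation within minutes, varied far more, with 479, 4333 and 1106 normalized counts in T1 and 4518, 8535 and 6568 in T2 libraries. T1 replicate 2 was just below the lowest T2 library (log2 fold change -2.26, standard error 0.61, adjusted p = 0.00815, limma). The exceptions were Spry1, Myc and Phlda1, higher in T1 cells with log2 fold changes of 3.01, 1.27 and 0.78. Spry1, which like Spry2 inhibits signaling from receptor kinases, had 1485, 903 and 2166 normalized counts in T1 and 181, 154 and 195 in T2 libraries. Over the alternative settings tried, 10 to 12 genes of the list were lower and 2 to 3 higher in T1 cells.

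**Figure D5:**
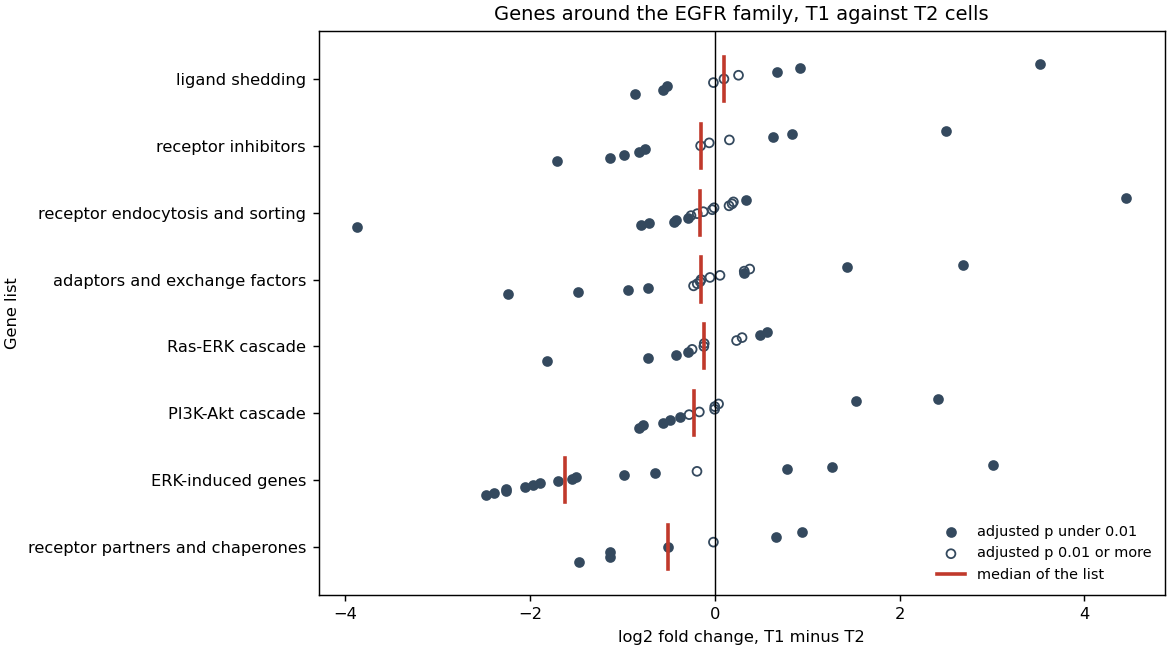
Each point is the log2 fold change (T1 minus T2) of a gene, by list, filled where the adjusted p-value was under 0.01, and red lines are the medians of the lists. The median of the ERK-induced genes is -1.62, and the medians of the other 7 lists lie between -0.50 and 0.10.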

How the data were processed

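The authors trimmed reads with Trimmomatic, aligned them to mm10 (TopHat2), counted reads on genes (HTSeq) and scaled the counts by DESeq2. The deposited signal is a gene's count divided by a size factor of its library. Annotation, strand setting and versions are not given in the sources used here. Within a tolerance of 0.01, 100% of values were whole multiples of what 1 read is worth, so reads were recovered. The spread between replicates exceeded counting noise (chi-square per degree of freedom 8.26 to 26.1). The columns covered 6 samples (0 unused).

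Samples were grouped by their titles. T1 and T2 cells were compared on the scale log2(normalized count + 1) by limma 3.58.1 (R 4.3.3, variance trend) for genes with a mean of at least 10. P-values were adjusted over all genes by Benjamini and Hochberg, and the thresholds were an adjusted p below 0.01 with an absolute log2 fold change over 2, sizes the study used for genes higher in T1 and applied here in both directions. As the unit was not whole counts, edgeR 4.0.16 and DESeq2 1.42.0 were run on the recovered reads as alternatives, and each called 974 genes against 964. The fits were also run on simulated counts with a fixed spread and large fold changes, which cannot check small folds or a wide spread between replicates. Other alternatives were the pseudocount, the filter, quantile normalization, no variance trend, wider thresholds, a replicate term and each replicate left out. Intervals are 95% and floors 3 reads, for counting error only.

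Positions and lengths came from GENCODE M21 (mm10), promoters from RefSeq (GRCm38.p6). Of the listed symbols, only Erbin was matched by a synonym, Erbb2ip. Named genes were the members, the further ligands, up to 3 called genes in each direction of each list with groups that did not overlap, and the 3 genes most like Egfr and Tgfa. Genes named beside these were chosen after seeing their values. Some genes that the rule names are not reported here. The members and lists were chosen with earlier results of these data known. Promoters of Erbb3, Ereg and Hbegf, protein sequences and parental 4T1GFP cells are left out.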

Additional observations from a re-analysis of the deposited data

How the results depend on the processing

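The 7 members at an adjusted p-value under 0.01 and the 5 past both filters were as many with every other pseudocount, scaling and variance setting, without a filter, and with edgeR and DESeq2. With a mean of at least 50, Epgn and Nrg4 were not compared, and the counts were 6 and 4. An adjusted p under 0.05 with a log2 fold change above 1 gave 2445 genes past both filters (1135 higher and 1310 lower in T1) and 6 members, Egfr being the one added. Over the 11 family genes compared, 159 of 163 fold changes under alternatives kept their direction and side of the threshold, and 4 reversed. These were of Nrg4, which was past no threshold, and were all among its leave-one-out values, -0.14 to 0.43 (-0.11 without T1 replicate 1, -0.14 without T1 replicate 3, -0.04 without T2 replicate 1 and -0.14 without T2 replicate 3, against 0.06). The cause was not tested. With each replicate left out in turn, 925 to 975 genes passed both filters, members past both filters were 5 in every case and members at an adjusted p-value under 0.01 were 7, and 51 to 60 genes of the pathway lists passed the p-value threshold. Whether the replicate numbers mark a pairing was not settled. Same-numbered T1 and T2 samples deviated together with weak correlations of 0.0575 to 0.172. Samples with different numbers had correlations of -0.152 to 0.0719, and 5 of 6 samples correlated best with their own number. With the replicate block 967 genes passed both filters, with 5 members among them, 7 members passed the p-value threshold and 61 genes of the pathway lists did. Depth limits Ereg, Erbb4 and Nrg3 (at most 1 read per library), Egf, Nrg4 and Epgn in T2 cells.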

Other observations

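Proteins that bind the receptors or keep them folded formed a list of 9 genes, of which 7 had enough reads to be compared. Past the p-value threshold (limma), 2 were higher in T1 and 4 higher in T2 cells, 85.7% in all against 49.5% of all genes compared, and the median of the log2 fold changes was -0.50. The 2 were the chaperones Hsp90aa1 and Hsp90ab1, of which Erbb2 is a well known client, with log2 fold changes of 0.95 and 0.67. Hsp90aa1 had 20948 ± 1909 normalized counts in T1 and 10859 ± 631 in T2 cells (SD, n = 3 each). The tetraspanins Cd82 and Cd9, found in complexes with Egfr or with the membrane form of Hbegf, were lower in T1 cells (log2 fold changes -1.47 and -1.13), as was Cd44, which presents Hbegf at the surface (log2 fold change -1.13). Cd9 had 5361 ± 330 normalized counts in T1 and 11736 ± 992 in T2 cells (SD, n = 3 each). Erbin, which binds Erbb2 and is listed as Erbb2ip, had a log2 fold change of -0.50. Muc4, a membrane mucin that binds Erbb2, had no read in any library. On chromosome 18, Nrg2 and Hbegf lie 307.5 kb apart, and both were higher in T2 cells. So were 24.4% of all genes compared at the p-value threshold. Genes between the 2 were not examined, and a shared change of the region was not tested.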
